A study of Mus musculus with 6 samples.

Results

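The genes described here are the mouse protein-coding genes named Zfp900 to Zfp999, each of which has the symbol Zfp9 followed by exactly 2 digits in the GENCODE vM21 annotation of chromosomes 1 to 19. This name rule found 63 genes among 20807 protein-coding genes, on 12 chromosomes, and used no measured value. DPPA4 binding at these genes was profiled by CUT&RUN, in which an antibody guides a nuclease to the chromatin a protein occupies. All cells came from the line EHMT2-dTAG-mcherry-mervl-gfp, mouse embryonic stem cells (mESCs) of a BL6/129 hybrid strain grown with serum and LIF, and all were given dTAG for 72 h, which degrades the tagged H3K9 methyltransferase EHMT2. The 2 groups were separated by live sorting on the reporter: GFP-negative cells, taken as mESCs, and GFP-positive cells, taken as 2-cell-like cells (2CLCs), in which a promoter of the endogenous retrovirus MERVL drives GFP. No cells with intact EHMT2 enter either group, and the reporter lines of the study were grown from picked colonies. Each group had 2 DPPA4 libraries, whose reads were pooled into 1 peak list, so no value below has a spread between replicates and no p-value is given. On chromosomes 1 to 19 the list of GFP-negative cells (the mESC list below) held 81913 peaks and that of GFP-positive cells (the 2CLC list) 53110, and the reads behind each are not known. Intervals are 95% Wilson intervals for shares and Newcombe-Wilson intervals for differences, and they cover counting error only.

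Most genes of this kind encode proteins with an array of C2H2 zinc fingers, which read DNA sequence, behind a KRAB domain, which recruits the corepressor TRIM28 (KAP1) and, through it, the H3K9 methyltransferase SETDB1. Many such proteins silence endogenous retroviruses and other transposable elements in mESCs and the early embryo. The genes arose by repeated tandem duplication, and for that reason they sit in clusters of similar copies and differ between mouse strains. The cluster at the end of chromosome 4 is known for recent, mouse-specific duplication. DPPA4 itself binds DNA together with DPPA2, and the pair is needed for expression of genes of zygotic genome activation. Protein sequences were not analysed here, so whether each gene encodes a KRAB domain was not checked.

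Many of these genes are copies with similar starts, which matters for how a peak can be read. The promoter sequences of 51 of the 63 genes were found in RefSeq (GRCm38.p6), from 250 bases before to 50 bases after the start. The genes with the strongest promoter peaks are shown first, 5′ to 3′ on the gene strand, with each CCAAT box on either strand in capitals, followed by the promoter of Zfp966, which Zfp967 carries letter for letter over all 300 bases. Zfp956 lies at chr6:47953140-47953439 (+), Zfp961 at chr8:71950816-71951115 (+), Zfp959 at chr17:55891843-55892142 (+) and Zfp966 at chr2:175931051-175931350 (-).
Zfp956: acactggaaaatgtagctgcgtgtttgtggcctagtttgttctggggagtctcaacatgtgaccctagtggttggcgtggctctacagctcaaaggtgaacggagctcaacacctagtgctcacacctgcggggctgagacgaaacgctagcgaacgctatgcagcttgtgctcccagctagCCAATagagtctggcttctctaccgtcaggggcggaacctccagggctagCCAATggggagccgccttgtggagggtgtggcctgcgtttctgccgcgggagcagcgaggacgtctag
Zfp961: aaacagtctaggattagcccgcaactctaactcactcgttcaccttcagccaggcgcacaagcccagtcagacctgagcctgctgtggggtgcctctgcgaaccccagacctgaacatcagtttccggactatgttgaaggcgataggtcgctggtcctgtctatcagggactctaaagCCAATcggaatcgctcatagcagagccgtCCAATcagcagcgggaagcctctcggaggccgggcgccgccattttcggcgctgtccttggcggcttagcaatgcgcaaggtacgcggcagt
Zfp959: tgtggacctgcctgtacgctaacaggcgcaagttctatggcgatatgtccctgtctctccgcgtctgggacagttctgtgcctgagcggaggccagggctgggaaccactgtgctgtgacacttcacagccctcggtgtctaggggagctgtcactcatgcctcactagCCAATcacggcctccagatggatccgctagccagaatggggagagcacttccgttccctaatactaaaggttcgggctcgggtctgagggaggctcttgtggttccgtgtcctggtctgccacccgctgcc
Zfp966: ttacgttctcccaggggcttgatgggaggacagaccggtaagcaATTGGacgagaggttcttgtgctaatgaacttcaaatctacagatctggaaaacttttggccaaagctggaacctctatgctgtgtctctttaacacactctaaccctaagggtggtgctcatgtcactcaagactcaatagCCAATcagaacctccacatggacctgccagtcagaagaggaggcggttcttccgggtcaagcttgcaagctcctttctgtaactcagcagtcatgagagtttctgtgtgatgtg

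A CCAAT box, the short element bound by the factor NF-Y at many promoters, was found in 39 of these 51 promoters (76.5%, 63.2 to 86), against 38.5% of 15484 protein-coding promoters and 43.3% of 261 promoters of other Zfp genes. All 10 promoters from chromosome 2 that were matched had it. These and other clustered members are related copies and not independent cases, which the interval does not take into account. The letters searched were CCAAT on either strand. Zfp961 and 2 other members had the letters ATGGCGG on either strand (the core of a YY1 site), 5.88% against 5.66% of all promoters. The GC box (GGGCGG) was found in 18 of 51 (35.3%) against 49.0%, and a DUX-like site (GATTNAATC) in 0 of 51 against 0.252%. The promoters were also poorer in G and C, with a median of 49.0% against 57.3%, and held a median of 7.0 CpG dinucleotides against 15. Members in the chromosome 4 cluster had 43.7% G and C and 5.0 CpG over 9 matched promoters, against 52.2% and 8.0 over 42 elsewhere. Those on chromosome 2 had 48.5% and 5.0. The GC box nevertheless was found in 7 of the 9 promoters of the chromosome 4 cluster. Elsewhere it was found in 11 of 42, with 0 of the 10 from chromosome 2. For comparison, the 4100 protein-coding promoters without a DPPA4 peak in either list had medians of 44.7% and 2.0 CpG, and the 9457 with a peak in both lists had 62.0% and 22.0.

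In the full lists DPPA4 peaks were more frequent at the promoters of these genes than at protein-coding promoters in general. A gene was counted when a peak summit lay within 2.5 kb upstream to 0.5 kb downstream of any transcript start. In the mESC list 53 of 63 genes (84.1%, 73.2 to 91.1) had such a peak, against 69.6% of all protein-coding genes. In the 2CLC list 56 of 63 (88.9%, 78.8 to 94.5) did, against 61.0%. The differences were 14.5 percentage points (3.54 to 21.5) and 27.8 points (17.7 to 33.5). The first of them was 6.35 points (−5.79 to 16.04) with the mESC list cut to the length of the 2CLC list, −2.43 points (−14.7 to 9.19) when peaks needed a −log10 q of at least 5, and −13.1 points in lists of the 10000 strongest peaks. In those shortest lists the second was 4.10 points (−6.08 to 16.4). Both were negative, at −21.9 and −17.8 points, when summits in repeated sequence did not count (copy number under 2 only), a setting chosen after the values were seen that removes the peaks of repeated starts and keeps those genes in the total. Other Zfp genes, of which there were 320, had a promoter peak in 91.3% and 84.7% of cases, so the excess was shared by zinc finger genes outside the Zfp900 to Zfp999 names. A promoter peak in both lists was found for 49 genes (77.8%, background 58.7%), in the mESC list only for 4 (6.35%, background 10.9%), in the 2CLC list only for 7 (11.1%, background 2.31%) and in neither list for 3 (4.76%, background 28.1%).

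**Figure D1:**
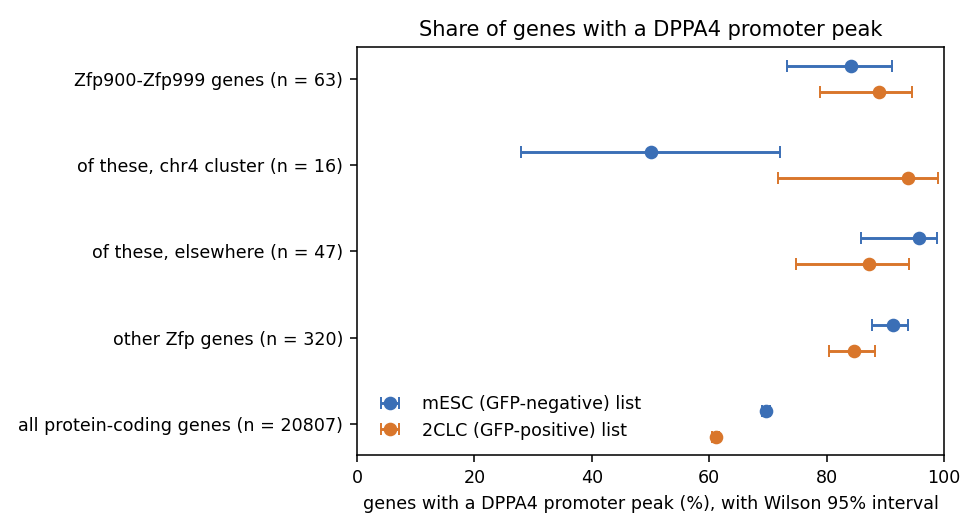
Share of genes with a DPPA4 summit at a promoter (x axis, percent) for the mESC (blue) and 2CLC (orange) lists, with Wilson 95% intervals as bars. All groups but the chromosome 4 cluster lie above 60% in both lists, while the cluster is at 50% in the mESC and 93.8% in the 2CLC list.

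The starts themselves are often present more than once in the genome. Copy number was taken as the median count of the 31-base words of the 200 bases around a position over the whole genome. At the 5′-most start it was 2 or more for 34 of the 63 genes (54.0%), against 6.54% of all protein-coding genes. The authors placed each read at its best-scoring location and chose at random among locations that scored equally. Where copies are identical over a read, the read could therefore not be assigned to a given copy. How reads of the hybrid strain that differ from mm10 were placed was not tested. Among the 29 members whose start had a copy number under 2, 26 (89.7%) had a promoter peak in the mESC and 24 (82.8%) in the 2CLC list, against 72.8% and 63.4% of all genes with such starts. Among the 34 with repeated starts it was 27 (79.4%) and 32 (94.1%), against 23.7% and 26.9% of the 1361 protein-coding genes with repeated starts. The excess over all genes was thus present on both sides of this division, with 16.8 points (0.755 to 23.6) and 19.3 points (2.0 to 29.0) for single-copy starts, a comparison chosen after the values were seen.

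Peaks at member promoters sat close to the starts and were of moderate strength. Of the 60 distinct promoter peaks in the mESC list 78.3% had a summit within 200 bp of a start, and of the 69 in the 2CLC list 78.3%, against 58.4% and 59.6% over all genes. Other Zfp genes lay between, with 67.7% and 69.1%, as did members in the chromosome 4 cluster, with 66.7% and 68.0%. The −log10 q is the caller's adjusted significance of the summit. It depends on read depth, so values of both lists are given side by side, the lists are compared through the percentile of a peak among all peaks of its list, and a −log10 q of 5 need not mean the same in both. The strongest promoter peak per gene had a median −log10 q of 7.62 (percentile 69.7) in the mESC and 6.78 (percentile 70.7) in the 2CLC list, against 15.8 (84.2) and 9.80 (78.9) over all genes with a promoter peak. Among genes with a peak in both lists the rank was higher in the 2CLC list for 26 of 49 members, against 63 of 262 other Zfp genes and 21.2% of 12222 protein-coding genes.

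The strongest promoter peaks belonged to genes on chromosomes 6, 8, 17 and 19. Zfp956 (chromosome 6 from 47953390 to 47965300) led the mESC list with a −log10 q of 46.8 and a fold enrichment of 14.4 over the caller's background, and had 17.2 and 7.81 in the 2CLC list. Zfp961 (chromosome 8 from 71951038 to 71993792) had a −log10 q of 46.4 in the mESC and 31.6 in the 2CLC list, with both summits 64 bp upstream of a start. Zfp959 (chromosome 17 from 55892093 to 55898928) led the 2CLC list with 32.2, and had 39.3 in the mESC list, although its start had a copy number of 3.0. Zfp964 (chromosome 8 from 69654479) had a −log10 q of 41.5 in the mESC list and 12.97 in the 2CLC list. Its neighbour Zfp963 had 31.2 and 21.7, and with Zfp961 and Zfp959 it was among the 5 strongest in both lists. Zfp960 on chromosome 17 had 24.4 and 26.1, and Zfp950 on chromosome 19 had 26.5 and 20.6. In percentiles of their lists all these peaks were at 84.3 or above.

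**Figure D2:**
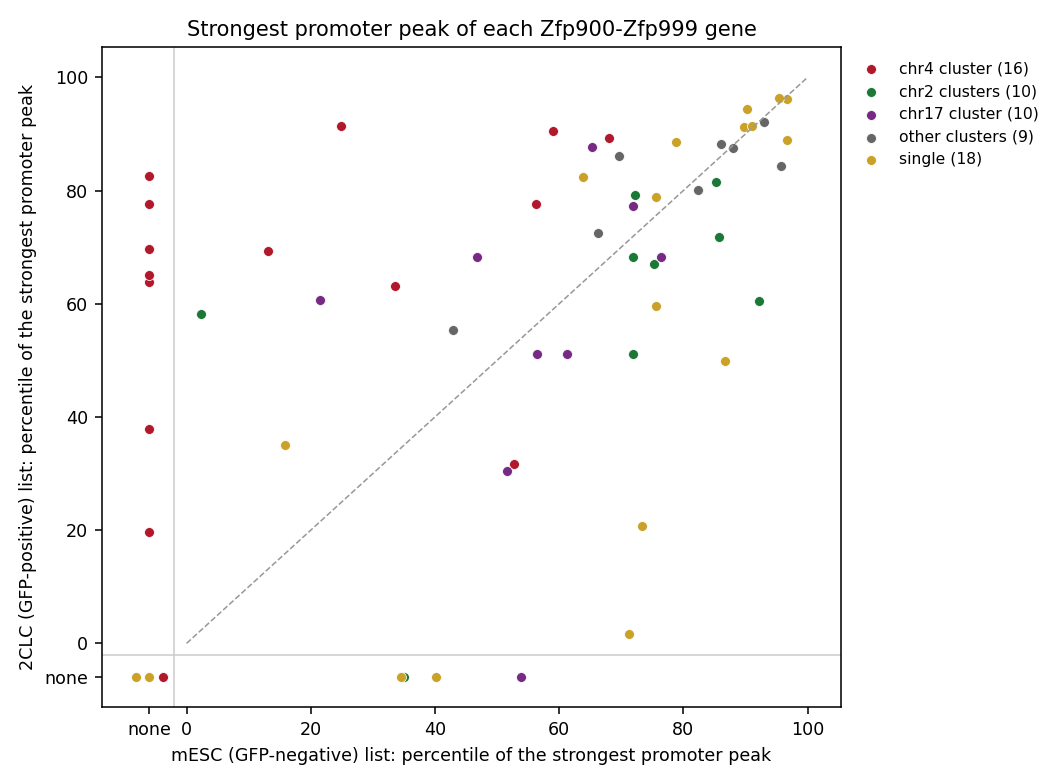
Percentile of the strongest promoter peak of each gene within the mESC list (x axis) and within the 2CLC list (y axis), coloured by cluster, with genes lacking a promoter peak in a list placed at "none" and the dashed line marking equal percentiles. The 7 genes at "none" on the x axis with a value on the y axis all belong to the chromosome 4 cluster (red).

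The genes fell into 8 clusters with 45 members, where each member began within 500 kb of the end of the one before, and 18 genes stood alone. The largest cluster, on chromosome 4 from 145510759 to 147848366, held 16 members and set itself apart. In it 8 of 16 members (50%, 28.0 to 72.0) had a promoter peak in the mESC list and 15 of 16 (93.8%, 71.7 to 98.9) in the 2CLC list. Of the 47 members elsewhere 45 (95.7%, 85.8 to 98.8) and 41 (87.2%, 74.8 to 94.0) did. All 7 genes with a promoter peak in the 2CLC list only were in the chromosome 4 cluster, and 0 of the 47 elsewhere. That 0 depended on the length of the lists. With the mESC list at the length of the 2CLC list there were 14 such genes, 4 of them elsewhere, and in lists of the 10000 strongest peaks there were 11, with 7 elsewhere. At a −log10 q of at least 5 there were 10, with 1 elsewhere. Members of the cluster with a promoter peak numbered 2 in the mESC and 11 in the 2CLC list at a −log10 q of at least 5, and 5 and 15 at equal list lengths. Among the 10000 strongest peaks they numbered 0 and 4, and with summits of copy number under 2 only, 3 and 5.

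The 7 genes with a promoter peak in the 2CLC list only were, from the strongest, Zfp988 (−log10 q 11.6), Zfp993 (9.16), Zfp986 (6.47), Zfp980 (5.27), Zfp990 (5.16), Zfp982 (2.51) and Zfp987 (1.87). The summit at Zfp988 lay 47 bp upstream of its start in sequence of copy number 1.0, while the strongest at Zfp986 lay 2265 bp upstream in sequence of copy number 140.5. A weaker 2CLC summit at Zfp986, with a −log10 q of 2.0, lay 22 bp downstream of its 5′-most start in sequence of copy number 1.0. These genes therefore differed in how far the strongest peak can be tied to the gene. The 8 cluster genes with promoter peaks in both lists were Zfp978, Zfp979, Zfp981, Zfp984, Zfp985, Zfp989, Zfp991 and Zfp933. Zfp978 had a −log10 q of 2.12 in the mESC and 20.3 in the 2CLC list. Zfp981 had 5.06 and 19.4, and Zfp991 had 7.02 and 17.6. In these genes the 2CLC peak ranked higher in its list by a wide margin, at percentiles of 91.4, 90.6 and 89.3 against 24.9, 58.9 and 68.1. These values are of the strongest promoter peak of a gene in each list, which need not be at the same site. At Zfp981 the 2 peaks shared no base, and the 2CLC peak that overlapped the mESC peak had a −log10 q of 11.8. Zfp979 had a −log10 q of 4.55 and 9.14, also at different sites, with the mESC summit 1897 bp upstream of the start. At its start the mESC peak had 4.08. Zfp985 had 1.58 and 6.20, and Zfp984 had 2.51 and 5.09. Zfp989 had 4.11 and 2.15, and Zfp933 had 4.57 and 3.46. At these 2 genes the percentile was lower in the 2CLC list, at 31.7 against 52.7 and at 51.1 against 56.5. Over the 8 genes the percentile was higher in the 2CLC list for 6, with a median difference of 25.4 points. Zfp992 was the 1 member of the cluster without a promoter peak, and had 3 intron peaks in the 2CLC list with a −log10 q of 2.79, 2.91 and 3.06.

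In the full lists 2CLC peaks were dense across the whole cluster, between its genes as well. Between its first and last base there were 76 mESC peaks, or 3.25 per 100 kb, close to the 3.33 per 100 kb of chromosomes 1 to 19, and 192 2CLC peaks, or 8.21 per 100 kb, against 2.16. Of the 2CLC peaks there, 132 (68.8%, 61.9 to 74.9) shared no base with a mESC peak, against 33.7% of that list. Of the mESC peaks, 11 (14.5%, 8.28 to 24.1) shared none with the other list, against 56.2%. Many of these peaks were not at members: 139 of the 192 and 49 of the 76 lay outside their promoters and gene bodies, among them the 5 strongest of each list in the cluster. Those 5 in the 2CLC list had a −log10 q of 105.5, 51.0, 44.3, 44.1 and 42.3, and all shared bases with a mESC peak. Among unshared peaks the highest value was 19.4 in the 2CLC and 17.9 in the mESC list. These counts across the cluster take in every listed peak and were not repeated at a −log10 q of at least 5. The 6 other protein-coding genes inside the cluster are further zinc finger or predicted genes. Rex2, Zfp534 and Gm13212 had a promoter peak in the 2CLC list only, Zfp600 and Gm21411 in both, and Gm16503 in neither.

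**Figure D3:**
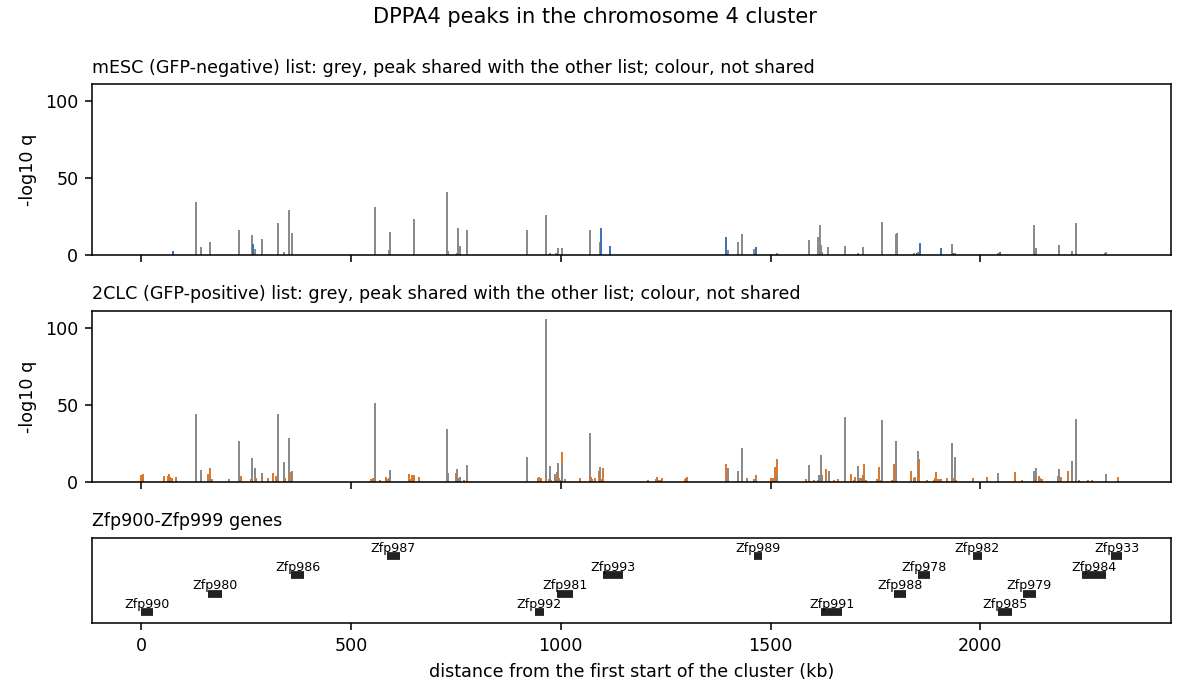
DPPA4 peaks along the chromosome 4 cluster (x axis, kb from its first start) with their height as −log10 q, for the mESC list (top) and the 2CLC list (middle), with member genes as black bars (bottom). Grey peaks share at least 1 bp with the other list and coloured ones do not: 11 of 76 in the mESC and 132 of 192 in the 2CLC list.

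Within the duplicated genes of this cluster the lists differed at different places. Summit windows of 200 bases were joined when they shared any 31-base word. Joining ran in chains, so the windows of a group need not all share a word with each other. The grouping was made after the values were seen, so its counts are a description. The largest group, called element A here, held windows of 14 members, and the second, called element B, held windows of 8 members in introns 1144 to 6011 bp downstream of the 5′-most start. Element A carried 12 mESC peaks at 10 members, from 79 bp upstream to 16787 bp downstream of that start, and 21 2CLC peaks at 13 members, from 101 bp upstream to 34078 bp downstream. It is thus not found at starts only, and 4 peaks of each list were in introns. Within 250 bp of the 5′-most start it carried 6 mESC peaks at 6 members, with a median −log10 q of 3.29 (1.58 to 7.02), and 13 2CLC peaks at 13 members, with a median of 6.20 (2.0 to 20.3). Farther away it carried 6 and 8. Counted by summit, element B showed the reverse order, with 8 mESC peaks at 8 members and 2 2CLC peaks, at Zfp979 and Zfp980. This count misses 2CLC peaks whose summit lies outside the element. The element B mESC peaks at Zfp979, Zfp980, Zfp986, Zfp987 and Zfp988 shared bases with a 2CLC peak. Those at Zfp978, Zfp985 and Zfp989 did not. At Zfp986, Zfp987 and Zfp988 the overlapping 2CLC peak had a −log10 q of 7.02, 8.1 and 26.4. The last of these had its summit in element A. The mESC peaks of element B had a median −log10 q of 11.8 (2.12 to 19.5), against 4.10 (1.44 to 13.9) for all those of element A. In the 2CLC list the median was 3.14 for element B and 6.93 (1.48 to 26.4) for element A, where the highest value of each list was at Zfp988, 4847 bp from the start. With a −log10 q of at least 5, element A kept 1 mESC and 9 2CLC peaks within 250 bp of the start and 4 and 7 farther away. Element B kept 7 and 0, again counted by summit.

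Element A is shown for 5 members and element B for 4, on the gene strand, to let the copies be compared. Capitals mark the run of 33 bases that 9 members shared exactly in element A, and the run of 52 bases that all 8 members shared in element B. The sequences of element A lie, in the order printed, at chr4:145670693-145670785, chr4:145868794-145868886, chr4:147132041-147132133, chr4:147492403-147492495 and chr4:147553278-147553370. Those of element B lie at chr4:145675653-145675760, chr4:146102779-146102890, chr4:147311686-147311784 and chr4:147637986-147638097, the last on the minus strand and all others on the plus strand.
Zfp980 element A: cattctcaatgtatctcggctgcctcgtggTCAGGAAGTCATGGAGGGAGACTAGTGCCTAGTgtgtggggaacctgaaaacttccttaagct
Zfp986 element A: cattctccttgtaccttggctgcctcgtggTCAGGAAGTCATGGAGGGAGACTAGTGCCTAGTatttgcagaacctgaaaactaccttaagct
Zfp991 element A: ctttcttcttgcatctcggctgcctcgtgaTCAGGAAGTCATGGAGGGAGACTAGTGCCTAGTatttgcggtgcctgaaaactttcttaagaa
Zfp982 element A: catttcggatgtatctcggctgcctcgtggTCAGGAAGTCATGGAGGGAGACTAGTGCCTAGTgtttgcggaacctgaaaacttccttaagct
Zfp985 element A: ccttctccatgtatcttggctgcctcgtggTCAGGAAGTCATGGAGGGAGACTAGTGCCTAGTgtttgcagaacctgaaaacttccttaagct
Zfp980 element B: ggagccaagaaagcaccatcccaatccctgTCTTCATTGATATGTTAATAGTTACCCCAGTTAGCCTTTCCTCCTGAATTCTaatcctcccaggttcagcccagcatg
Zfp987 element B: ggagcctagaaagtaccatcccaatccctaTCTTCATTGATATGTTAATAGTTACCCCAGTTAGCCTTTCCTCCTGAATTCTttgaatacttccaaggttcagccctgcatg
Zfp988 element B: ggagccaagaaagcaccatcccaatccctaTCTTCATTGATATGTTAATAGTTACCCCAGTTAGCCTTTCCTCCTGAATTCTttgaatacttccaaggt
Zfp979 element B: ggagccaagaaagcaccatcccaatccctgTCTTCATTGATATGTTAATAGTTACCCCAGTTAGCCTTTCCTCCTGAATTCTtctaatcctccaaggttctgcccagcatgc

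At element B the mESC −log10 q was 19.5 at Zfp979, 15.2 at Zfp987, 14.7 at both Zfp986 and Zfp988, 8.85 at Zfp980, 8.34 at Zfp978, 5.6 at Zfp989 and 2.12 at Zfp985. The equal values at Zfp986 and Zfp988 came with an equal fold enrichment of 5.93 and a copy number of 4.0 at each. Median copy number was 4.5 for the mESC peaks of element B, and 3.75 and 3.5 for the mESC and 2CLC peaks of element A. Reads of these copies cannot be told apart where their sequence is the same, and the part of copy number in the difference between the lists was not tested.

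**Figure D4:**
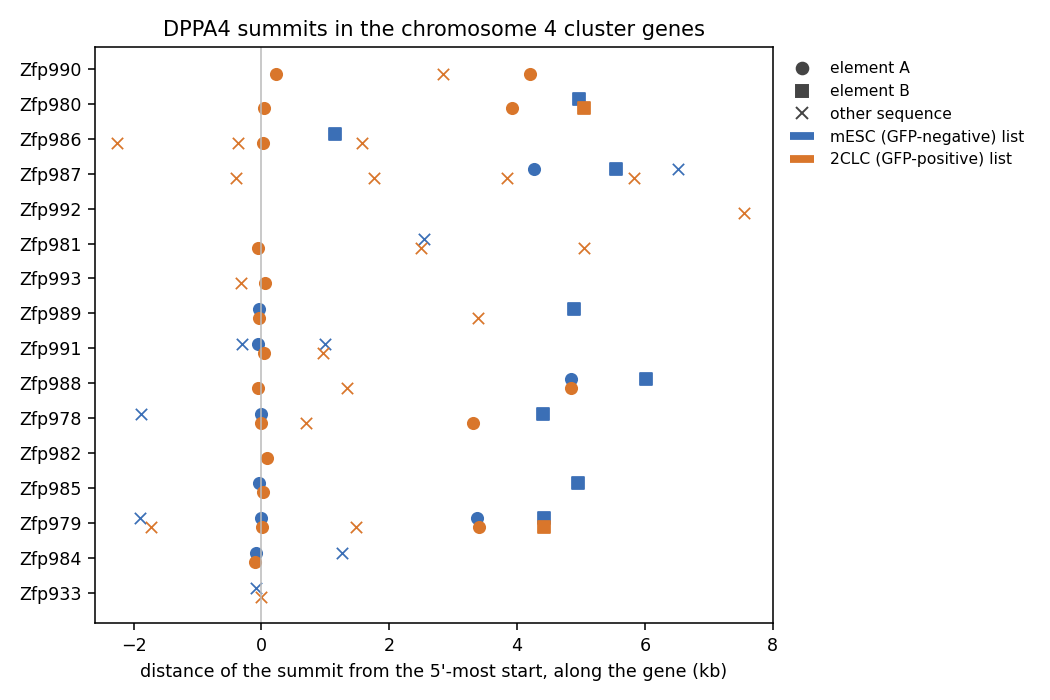
Position of each DPPA4 summit relative to the 5′-most start of its gene (x axis, kb along the gene) for the 16 genes of the chromosome 4 cluster (rows), in the mESC (blue) and 2CLC (orange) list, from 2.6 kb upstream to 8 kb downstream. Of 82 peaks 18 lie outside this range, and circles (element A) gather at 0, with others at 3307 to 4847 bp, while squares (element B) lie at 1144 to 6011 bp and are mostly blue.

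The chromosome 17 cluster (21567008 to 22867134) held 10 members and looked unlike that on chromosome 4. All 10 had a promoter peak in the mESC list and 9 in the 2CLC list, with Zfp995 as the exception (−log10 q 4.29 in the mESC list). Zfp983 had a −log10 q of 6.43 in the mESC and 15.7 in the 2CLC list. Zfp946 had 10.4 and 6.12, and Zfp944 had 8.45 and 9.12, where the summit also lay at the promoter of Zfp758 in the mESC list. By percentile Zfp983 and Zfp944 ranked higher in the 2CLC list and Zfp946 in the mESC list. Zfp948 had 3.55 and 6.12, Zfp947 had 5.49 and 3.46, and Zfp994 had 4.57 and 3.46. Zfp945 had 3.82 and 2.09. The divergent neighbours Zfp942 and Zfp943 shared a single promoter peak, with 2.03 in the mESC and 4.57 in the 2CLC list. The rank was higher in the 2CLC list for 5 of the 9 genes with both peaks, and only 2CLC intron peaks were found, 3 of them, at Zfp942 and Zfp943.

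The 10 members in the 3 clusters of chromosome 2 had the most repeated starts, with a copy number of 2 or more at all 10 and a median of 15. All 10 had a promoter peak in the mESC and 9 in the 2CLC list, and there were 0 intron peaks in either. Zfp968 had a −log10 q of 8.45 in the mESC and 6.12 in the 2CLC list. Zfp969 had 8.45 and 3.46, and Zfp966 had 5.49 and 3.46. Zfp965 had 2.59 in the mESC list and no 2CLC peak, although its promoter shares an unbroken run of 260 bases with that of Zfp973, which had 17.6 and 7.09. Zfp967, with the same 300 promoter bases as Zfp966, had 1.45 and 4.31. So copies with equal sequence received different values in the same list, and their order also turned between the lists. In the third of these clusters Zfp972 had 29.2 and 4.56, Zfp931 had 16.9 and 11.2, Zfp970 had 9.62 and 5.79, and Zfp971 had 8.52 and 10.1. Zfp972 and Zfp931 have the starts least often copied among these, with copy numbers of 2.0 and 3.0.

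On chromosome 7 a cluster of 4 members had promoter peaks in both lists at all 4. Zfp936 had a −log10 q of 20.3 in the mESC and 15.6 in the 2CLC list, and Zfp976 had 17.7 and 16.4. Zfp975 had 6.68 and 7.34, and Zfp977 had 3.02 and 3.98. By percentile the rank was higher in the 2CLC list for 3 of the 4, with Zfp936 as the exception. The remaining clusters, 3 genes on chromosome 8 (Zfp930, Zfp963 and Zfp964) and 2 on chromosome 13 (Zfp934 and Zfp935), also had promoter peaks in both lists at every gene. Of the 18 genes outside clusters 14 had peaks in both lists, 2 in the mESC list only and 2 in neither.

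Few members had the reverse pattern. Besides Zfp995 and Zfp965, a promoter peak in the mESC list only was found at Zfp952 (−log10 q 2.89) and Zfp953 (2.52). All 4 of these peaks lay under a −log10 q of 5, at percentiles of 53.8, 35.1, 40.1 and 34.5 of their list, and that at Zfp953 also lay at the promoter of Gm28044. The summit at Zfp952 was 977 bp upstream of a start in sequence of copy number 13.5. Zfp957 had no promoter peak but an intron peak (3.86) and a last-exon peak (1.87) in the mESC list and a last-exon peak (3.08) in the 2CLC list. Zfp974 had no peak in either list.

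Exons outside promoters were rarely bound. An exon peak was found at 3 members (4.76%, background 20.1%) in the mESC and 4 (6.35%, background 14.3%) in the 2CLC list, at Zfp957, Zfp961, Zfp973 and, in the 2CLC list, Zfp975. The last exon, which in these genes usually encodes the zinc fingers, held 2 and 3 of these summits. The exon peaks of Zfp961 and Zfp973 also lay at promoters of other genes, Cyp4f18 and Gm14305. Introns held a peak at 20 members (31.7%, background 38.7%) in the mESC and 22 (34.9%, background 30.2%) in the 2CLC list. Per length the order of the lists was the reverse of that elsewhere: member introns outside promoter windows carried 1.89 mESC and 3.84 2CLC peaks per 100 kb, against 3.32 and 1.84 in all protein-coding genes and 4.06 and 2.12 in other Zfp genes. This was so inside the chromosome 4 cluster, with 3.61 and 6.54, and in members elsewhere, with 1.19 and 2.74. At a −log10 q of at least 5 the intron peaks of members numbered 12 of 29 in the mESC and 14 of 59 in the 2CLC list. The 3 genes of the chromosome 8 cluster had the other order, with 4.77 and 0 per 100 kb, from 1 and 0 peaks. Zfp934 and Zfp935, which overlap and share peaks, gave 6 and 13 of the 29 and 59 intron assignments.

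Genes of corepressors of KRAB zinc finger proteins, and of other silencing factors such as Dnmt1, Uhrf1 and Morc3, were counted in the same way. They form a list of 14, chosen with earlier results of these data known. All 14 had a promoter peak in both lists, against 58.7% of all genes. Their promoter windows were longer, with a median of 11.05 kb per gene against 6.0 kb over all genes. Trim28, which binds the KRAB domain, had a −log10 q of 51.2 in the mESC and 41.1 in the 2CLC list. Setdb1, the H3K9 methyltransferase of this pathway, had 11.6 and 7.49. Uhrf1, which brings DNA methyltransferase 1 to replicated DNA, had 40.3 and 19.2. The −log10 q was higher in the 2CLC list at Atf7ip (18.55 and 32.9) and Cbx3 (15.38 and 22.17), and lower at the others. By percentile Trim28, Atf7ip, Cbx3, Cbx5, Morc2a and Fam208a ranked higher in the 2CLC list, and the others ranked lower.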

How the data were processed

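DPPA4 CUT&RUN was done in 2 libraries of GFP-negative and 2 of GFP-positive cells, and 2 IgG libraries were not used here. Per the methods of the study and the submitters' processing notes, the authors aligned paired reads to mm10 with STAR (2.7.10), placing each read at its best-scoring location, at random where locations tied, removed duplicates with Picard (2.26.0) and called peaks with MACS2 (2.2.6) on fragments, after dropping high-signal regions. Whether IgG served as the control was not given in the sources used here. The deposited lists give the authors' fold enrichment (a ratio to the caller's background), their −log10 q (lowest value 1.3, a q-value of 0.05) and other values, among them a summit offset in bp. Replicates were pooled, and read depth is unknown. Groups were taken from the sample titles.

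Summits were assigned to GENCODE vM21 genes (GRCm38, the mm10 sequence, with 0 peaks beyond a chromosome end) as promoter, other exon or intron, in that order, with Python (3.11.15) and numpy (2.4.6), and the assignment was tested on simulated peaks. A peak shared by overlapping genes was counted for each gene. Named with values were the 5 strongest promoters per list, up to 5 members with a promoter peak in 1 list only (for the GFP-positive list the 2 that remained were also given), members bound outside promoters only or not at all, and the members of the largest clusters, ties included. Promoter entries from RefSeq were used when within 500 bases of a GENCODE start. The members and lists were chosen with earlier results of these data known. A planned division by protein domains was not analysed here. Per-sample columns left unused numbered 0.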

Additional observations from a re-analysis of the deposited data

How the results depend on the processing

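No paired analysis was possible because both replicates of a group were merged before peak calling, so no fit with or without a replicate block, and none without a replicate, could be made. Read depth is unknown, which limits every count of peaks. Of 68 alternative values for the counts of members, the differences from all genes, the peak counts and the clusters, 41 stayed within 1.5 times of the reported count or within the interval of the reported difference, 23 moved and 4 changed sign. Of 47 values for results added after the data were seen, on the chromosome 4 cluster, genes bound in 1 list only and elements A and B, 25 stayed within 1.5 times and 22 moved. With a −log10 q of at least 5, members with a promoter peak numbered 35 in the mESC and 37 in the 2CLC list, 27 in both and 18 in neither, with 36 and 40 promoter peaks, 1 and 0 exon peaks and 12 and 14 intron peaks, and the differences from all genes were −2.43 (−14.7 to 9.19) and 14.2 points. Among the 10000 strongest peaks of each list these numbers were 10, 20, 9 and 42 members, and −13.1 (−20.2 to −2.15) and 4.10 points. With summits of copy number under 2 only, chosen after the data were seen, they were 29, 26, 22 and 30 members, and −21.9 and −17.8 points; this setting removes the peaks of repeated starts and keeps those genes in the total. With the 5′-most start only, the 2CLC difference was 35.6 points. With the mESC list at the length of the other, its difference was 6.35 points (−5.79 to 16.04) and its exon peaks numbered 1, and with any overlap of 1 bp the 2CLC exon peaks numbered 8. Members in clusters numbered 39 within 200 kb and 45 within 1000 kb. The causes of these shifts were not tested.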
